A study of Mus musculus with 20 samples.

Results

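The genes described here lie on mouse chromosome 8 and were read in embryonic stem cells (ESC). Genes were chosen by their detection and level on the ESC arrays, whatever the genotype. A gene was included where RefSeq places it on chromosome 8, where a probe had a detection p-value under 0.01 on all 9 ESC arrays, and where the mean log2 of the authors' processed intensity over those arrays was at least 8. Each gene was represented by its brightest qualifying probe. The rule took 207 of the 920 chromosome 8 genes on the array, all 207 of them protein coding, out of 18295 autosomal genes on the array. Of the other chromosome 8 genes, 204 were detected on all 9 arrays but stayed below the level threshold. Just inside the threshold were Mau2 (8.002), Wdr83os (8.020) and Zswim4 (8.022), and just outside were Got1l1 (7.995), Nol3 (7.992) and Mast3 (7.984). Applied to the other 18 autosomes, the same rule took 2966 genes, which served as the control.

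The study asked how loss of Mysm1, a histone deubiquitinase, alters gene expression in several mouse cell types. ESC of 3 genotypes were compared, each on the C57BL/6 background and each with 3 independently passaged samples: wild type (wt), heterozygous Mysm1+/tm1a (het) and homozygous Mysm1tm1a/tm1a (hom). The same genotypes were read in mouse embryonic fibroblasts (MEF) from 4 wt, 4 het and 3 hom samples. The allele is Mysm1tm1a(KOMP)WTSI, a knockout-first design that interrupts the transcript with a trapping cassette. The sources used here do not say how many ESC lines stand behind the 3 passaged samples of a genotype, so p-values measure the spread between these samples, which may be technical or shared by 1 line.

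Mouse ESC are pluripotent cells that divide quickly in culture, and their chromosome number can drift with passage. Gain of an extra chromosome 8 is among the best known recurrent changes of cultured mouse ESC. A change in copy number of a chromosome is known to move the transcripts of many of its genes together and by a small amount, whatever those genes do. Chromosome 8 carries genes of replication, chromatin, splicing, translation and mitochondrial respiration that every dividing cell uses, along with receptors and extracellular matrix genes of narrower expression.

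Nup133 and Ankrd11 had the most negative differences among members whose mutant and wt arrays did not overlap. Prkaca was the named member closest to no difference. The promoters of these 3 members are shown. Each is 300 bases from RefSeq (GRCm38.p6), 5′ to 3′ on the gene's strand, with each CG dinucleotide in capitals. CG reads the same on both strands, and occurrences cannot overlap. The windows are chr8:123949216-123949515 on the minus strand for Nup133, chr8:123042235-123042534 on the minus strand for Ankrd11, and chr8:83972728-83973027 on the plus strand for the first of the 2 listed starts of Prkaca.
Nup133: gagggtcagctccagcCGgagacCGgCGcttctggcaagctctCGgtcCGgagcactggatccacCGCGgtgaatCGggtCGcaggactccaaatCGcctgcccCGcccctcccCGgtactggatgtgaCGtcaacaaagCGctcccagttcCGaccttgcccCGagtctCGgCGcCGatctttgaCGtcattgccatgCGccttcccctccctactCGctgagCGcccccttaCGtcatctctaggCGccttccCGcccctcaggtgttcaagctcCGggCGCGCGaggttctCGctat
Ankrd11: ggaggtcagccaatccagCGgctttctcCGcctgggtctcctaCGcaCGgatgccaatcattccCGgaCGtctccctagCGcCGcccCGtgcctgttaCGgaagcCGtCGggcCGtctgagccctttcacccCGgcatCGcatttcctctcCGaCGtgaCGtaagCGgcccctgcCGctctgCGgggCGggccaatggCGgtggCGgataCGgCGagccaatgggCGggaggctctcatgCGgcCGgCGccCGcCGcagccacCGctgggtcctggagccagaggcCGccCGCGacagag
Prkaca: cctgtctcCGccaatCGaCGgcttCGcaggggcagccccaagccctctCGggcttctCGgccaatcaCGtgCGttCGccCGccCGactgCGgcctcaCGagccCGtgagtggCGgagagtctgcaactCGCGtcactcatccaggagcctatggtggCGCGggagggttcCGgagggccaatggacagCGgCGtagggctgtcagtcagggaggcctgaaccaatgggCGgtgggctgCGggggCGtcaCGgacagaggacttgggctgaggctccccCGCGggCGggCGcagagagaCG

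All 3 windows are rich in CG: 31 dinucleotides in Nup133, 36 in Ankrd11 and 31 in Prkaca, with a GC content of 65.3%, 70.3% and 69.7%. In the whole promoter table at least as many CG were found in 10.3% of windows for Nup133 and Prkaca and in 6.02% for Ankrd11. The window of the second listed start of Prkaca, not printed here, was poor in CG. It had 2 CG dinucleotides and a GC content of 51.3%, and 85.4% of windows had at least as many CG. A promoter was listed for 155 of the 207 members, with a median of 23 CG dinucleotides, beside a median of 22 over 2474 promoters of the control genes. The 27 listed promoters of members whose mutant arrays all lay below all wt arrays had a median of 24, and the 128 of members with overlap had a median of 22. The members thus resembled other genes of their level in this feature, and the whole table of 27025 genes had a median of 7.

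The arrays were first checked against their labels. All 12 ESC markers, among them the pluripotency factors Pou5f1, Nanog and Sox2, were detected on all 9 arrays. Of 10 fibroblast markers 4 were detected on all 9 arrays and Col3a1 and Postn on none; of 9 primitive endoderm markers 3 were detected on all 9, and Gata4, Sox17 and Foxa2 on none. On 7 markers of primed epiblast and streak with a probe, the summed log2 intensity lay between 44.3 and 44.9 on the wt arrays, 45.3 and 46.7 on the het arrays and 45.4 and 48.9 on the hom arrays, with Mixl1 and Eomes detected on none. On this primed sum every wt array was below every mutant array. The summed fibroblast markers overlapped between genotypes, at 52.2 to 65.8 in wt, 52.3 to 70.9 in het and 53.7 to 66.3 in hom. The summed ESC markers also overlapped, at 111.2 to 114.3 in wt, 112.0 to 113.7 in het and 109.2 to 112.8 in hom. So did the summed primitive endoderm markers, at 48.2 to 51.5 in wt, 48.9 to 54.0 in het and 48.5 to 51.2 in hom. The part of these marker differences in the results below was not tested. Median raw signal ranged from 54.1 to 59.8 and the share of probes detected from 29.3% to 31.5%, and the number of arrays limits the precision.

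Mysm1 itself, which is not a chromosome 8 gene, read 7.69, 7.48 and 7.65 (log2 intensity) on the wt arrays. The het arrays read 4.45, 6.69 and 6.67, and the hom arrays 6.47, 5.42 and 4.81. Every mutant array was below every wt array, but the library labelled het 1 read lower than all 3 libraries labelled hom, and the library labelled hom 1 stood close to the libraries labelled het 2 and het 3. Hom minus wt was -2.04 (SE 0.57, adjusted p = 0.297, and 0.0462 in the fit blocked by replicate number, called the block below), and an exact two-sided permutation test gave p = 0.1, the smallest that 3 against 3 arrays allow. Het minus wt was -1.67 (adjusted p = 0.952, and 0.188 with the block). Because het and hom could be exchanged between those 2 libraries without contradicting Mysm1, the comparison of all 6 mutant arrays with the 3 wt arrays was used most below; it does not depend on which mutant genotype a library has. Array names below are those of the labels.

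Chromosome 8 transcripts stood lower on every mutant ESC array than on any wt array. Expressed as the median over the 207 members of log2 intensity minus the wt mean of the same probe, the wt arrays read 0.10 (wt 1), -0.0051 (wt 2) and -0.08 (wt 3). The het arrays read -0.17, -0.26 and -0.25 in the order het 1 to het 3. The hom arrays read -0.20, -0.26 and -0.19 in the order hom 1 to hom 3. Each wt array is part of the wt mean, which makes its own value smaller in size. Against the mean of the other 2 wt arrays, wt 1, wt 2 and wt 3 read 0.14, -0.0077 and -0.12. All 6 mutant arrays were therefore below the lowest wt array, and chromosome 8 was below each of the other 18 autosomes on all 6. The other autosomes ranged from -0.03 to 0.06 on het 1, from -0.10 to -0.04 on het 2 and from -0.06 to 0.04 on het 3. On the hom arrays they ranged from -0.02 to 0.07, from -0.09 to 0.01 and from -0.06 to 0.06. In bulk RNA, fewer cells with a shifted chromosome and a smaller shift in every cell cannot be told apart. Chromosome 8 was picked with this difference already seen on these arrays, so its place among the autosomes is a description of the arrays and not an independent test.

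**Figure D1:**
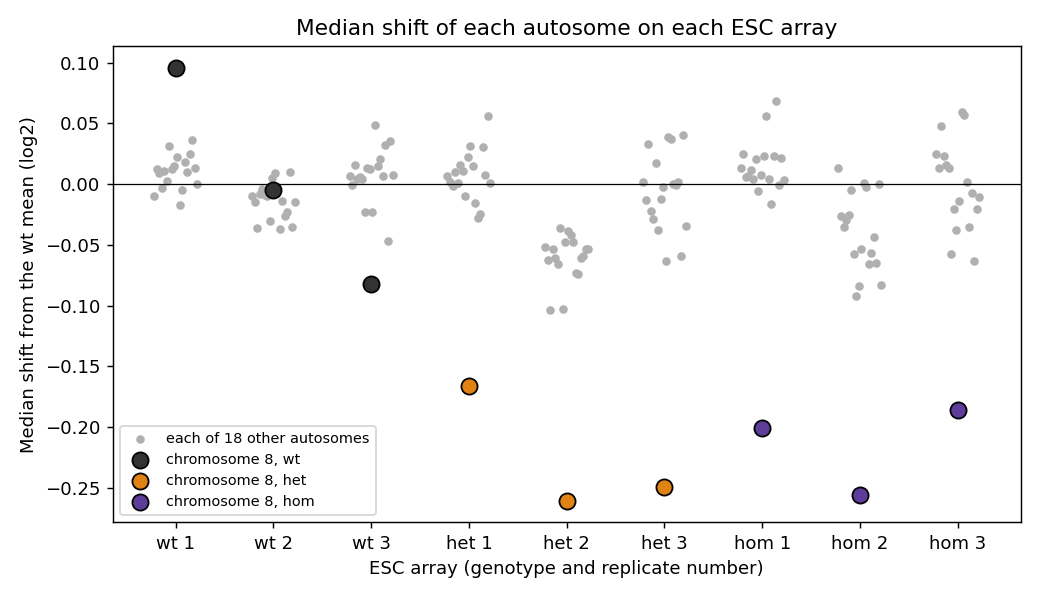
Each point is the median over 1 autosome's genes of log2 intensity minus the wt mean, on each of the 9 ESC arrays; large points are chromosome 8 coloured by genotype and grey points the other 18 autosomes. Chromosome 8 sits at 0.10, -0.0051 and -0.08 on the wt arrays and between -0.26 and -0.17 on the mutant arrays, below every grey point there.

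Counted gene by gene, 174, 170 and 171 of the 207 members were below their wt mean on the het arrays and 172, 161 and 161 on the hom arrays, that is 77.8% to 84.1%. Among control genes the share below the wt mean on the mutant arrays ran from 47.1% to 58.5%. The wt arrays differed among themselves too: 52 members were below the wt mean on wt 1, 106 on wt 2 and 150 on wt 3. Wt 1 was above all other autosomes (highest 0.04) and wt 3 below all of them (lowest -0.05), while wt 2 lay inside their range.

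Set against single wt arrays, the mean of the 6 mutant arrays was lower by each of them but by unequal amounts. The median member difference was -0.32 against wt 1, -0.21 against wt 2 and -0.14 against wt 3, and the other autosomes stayed between -0.07 and 0.05 in all 3 comparisons. Wt 3 minus wt 1 was -0.19, with 158 of 207 members negative and the other autosomes between -0.08 and 0.07. The distance between those 2 wt arrays was thus larger than the distance from wt 3 to the mutants. Wt 2 minus wt 1 was -0.11 (other autosomes -0.06 to 0.01) and wt 3 minus wt 2 was -0.065 (other autosomes -0.05 to 0.06). Chromosome 8 thus fell outside the range of the other autosomes in every pair of wt arrays. Among the 15 pairs of mutant arrays the chromosome 8 median ranged from -0.11 to 0.07, and it fell outside the range of the other autosomes in 3 pairs. Pairs with the same replicate number all had a negative difference: het minus wt was -0.25, -0.23 and -0.15 for numbers 1 to 3, and hom minus wt was -0.29, -0.20 and -0.09. The share of negative members ran from 66.7% (hom 3 minus wt 3) to 90.8% (hom 1 minus wt 1). Among control genes it ran from 49.6% to 57.1%. The lowest other autosome was at -0.11 in hom 2 minus wt 2 and between -0.06 and -0.025 in the other pairs.

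Across the whole comparison the members' median difference, mutants minus wt, was -0.20 on the log2 scale, a level of 87.0% of wt, with quartiles at -0.31 and -0.10. The 2966 control genes had a median of -0.01 with quartiles at -0.12 and 0.10, and the medians of the other 18 autosomes ran from -0.04 to 0.01. Of the 207 members 186 (89.9%) had a negative difference, against 53.4% of control genes. In the limma fit with no block, 0 members passed an adjusted p of 0.05, as did 0.0% of the 14502 probes tested in either direction; 70 members were lower and 0 higher at an unadjusted p under 0.05, where 5.41% of all probes were lower and 4.54% higher. The lowest adjusted p of a member was 0.432. The replicate numbers paired the ESC arrays, and in the blocked fit limma called 30 members lower and 0 higher, where it called 1.56% of all probes lower and 1.51% higher. That count rested on single arrays: it was 0 without wt 2, 1 without wt 3 and 2 without het 2 or without hom 2. Without wt 1 it was 7, of which 6 were lower and 1 higher. Calls over all 14502 probes fell too, from 226 lower and 219 higher to 4 and 2 without wt 2. Without wt 3 they were 9 and 31, and without wt 1 they were 74 and 128. Without het 2 they were 15 and 23, and without hom 2 they were 25 and 36.

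Of the 226 probes called lower with the block over the whole array, 69 (30.5%) were chromosome 8 probes, which made up 4.88% of the probes tested. Of the 219 called higher, 2 were on chromosome 8. Seen from the chromosomes, 9.76% of the 707 tested chromosome 8 probes were called lower, and on the other autosomes 0.508% to 1.92% of probes were. Chromosome 8 was picked with its difference already seen on these arrays, so these shares describe the arrays and are not an independent test. The calls also depended on single arrays, as given above.

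The overlap of arrays was counted without a fit. It describes the same arrays on which chromosome 8 was picked and is not an independent test. In 36 of 207 members (17.4%) all 6 mutant arrays were below all 3 wt arrays, beside 2.98% of all probes tested, and in 0 members were they all above, beside 2.03%. Of the control genes 56 (1.89%) were all below and 53 (1.79%) all above, and no other autosome had more than 3.36% of its genes all below. Of the 30 members called with the block 19 belonged to these 36. With fewer arrays any probe separates more easily. Without the libraries labelled het 1 and hom 1 the count of members all below was 56 (27.1%, beside 6.94% of all probes), without wt 2 it was 56 (27.1%, beside 7.44%) and without wt 3 it was 66 (31.9%, beside 6.49%).

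Taken separately, both mutant genotypes showed the difference; they share the 3 wt arrays, so their values are given side by side. Hom minus wt had a member median of -0.21 (86.3% of wt) with 175 of 207 members negative, and het minus wt a median of -0.21 (86.5% of wt) with 186 negative. With no block limma called 0 members in either; at an unadjusted p under 0.05 it gave 53 lower and 0 higher for hom (6.16% of all probes lower and 5.9% higher) and 45 lower and 0 higher for het (2.62% lower and 1.92% higher). With the block 29 members were called lower and 0 higher in hom minus wt (2.26% and 1.88% of all probes) and 1 in het minus wt, Gab1 (0.0621% of all probes). Here too single arrays mattered. The count for hom minus wt was 0 without wt 2 or hom 2, 1 without hom 3 and 4 without wt 3. It was 9 without wt 1 or het 2, and the count for het minus wt ran from 0 to 2 with 1 array left out. Over all probes, hom minus wt calls fell from 328 lower and 273 higher to 2 and 0 without wt 2 or hom 2. They were 5 and 4 without hom 3 and 24 and 36 without wt 3. Without wt 1 they were 117 and 132, and without het 2 they were 103 and 106. For het minus wt the calls over all probes ran from 2 to 45 lower and 1 to 95 higher with 1 array left out. Hom minus het had a median of 0.01 with 100 of 207 members negative; limma called 0 members with or without the block, and 3 were lower and 3 higher at an unadjusted p under 0.05, where 1.32% of all probes were lower and 2.32% higher.

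The arrays lay on different slides, and slide is partly the same as genotype. Slides were read from the shared first part of the array identifiers and numbered here. Among the ESC arrays, slide 2 held the 3 wt arrays and het 1, and slide 3 held het 2, het 3 and the 3 hom arrays. No slide held both wt and hom ESC arrays, nor both wt and hom MEF arrays. Within slide 2, het 1 minus wt was -0.17 with 174 of 207 members negative, and the other autosomes stayed between -0.03 and 0.06. Within slide 3, hom minus het was 0.05 with 85 negative, inside the range of the other autosomes (-0.02 to 0.08). With slide as a fixed block the member median was -0.14 for mutants minus wt, where the other autosomes ran from -0.03 to 0.08, and -0.10 for hom minus wt, where they ran from -0.05 to 0.11; with slide as a random block mutants minus wt was -0.21. The fixed block takes its wt to mutant difference from het 1 alone.

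The difference ran along the whole chromosome. In 10 bins of 20 or 21 members in gene order, all 10 bin medians were negative, from -0.13 in the bin from Cherp to Calr to -0.28 in the bin from Cenpt to Sf3b3. The first bin, Arhgef18 to Golga7, had a median of -0.14 with 18 of 21 members negative, and the last, Snai3 to Coa6, had -0.17 with 17 of 20 negative. Each of the 60 medians of 1 bin on 1 mutant array was negative, from -0.37 to -0.05. Single wt arrays also kept their sign: wt 1 was positive in every bin (0.04 to 0.14) and wt 3 negative in every bin (-0.14 to -0.03). Wt 2 had both signs. In the first bin wt 3 (-0.12) lay below hom 2 (-0.05), the highest mutant array there. On the other 18 autosomes 180 bins cut the same way had medians between -0.16 and 0.21, and 2 of them were at or below -0.13. Members all below wt occurred in every bin, from 2 in the bin from Cherp to Calr to 6 in the bin from Cenpt to Sf3b3.

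**Figure D2:**
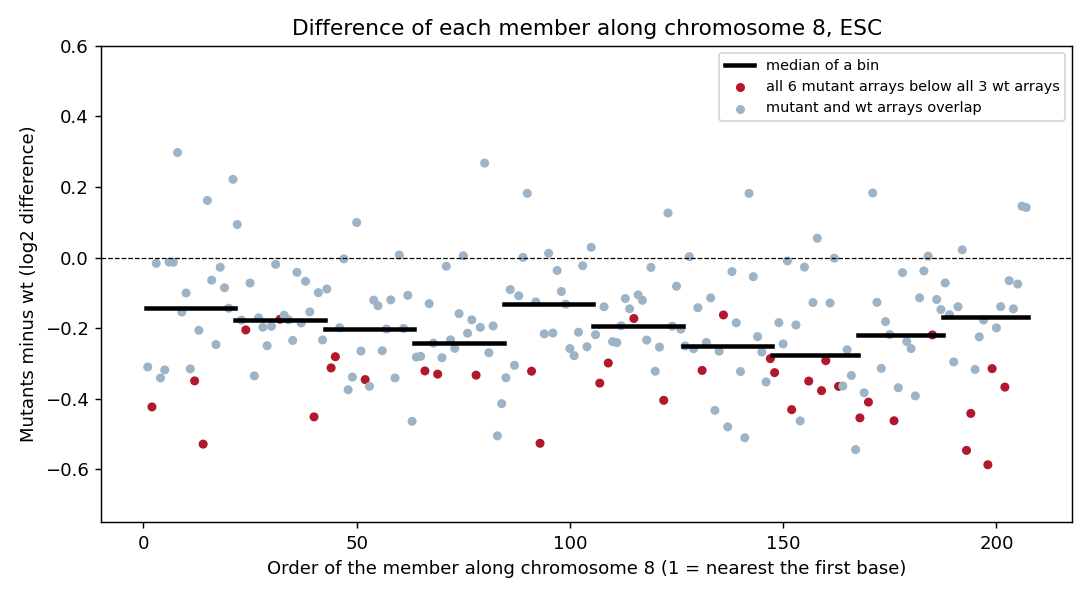
Each point is 1 of the 207 members in gene order along chromosome 8 (x axis, rank) with its mutants minus wt difference in log2 intensity (y axis); red points have all 6 mutant arrays below all 3 wt arrays and black bars are medians of 10 bins. All 10 bars lie below 0, between -0.28 and -0.13, and the 36 red points occur in all bins.

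The difference was present at each level of brightness and in probes that the rule did not use. The dimmest 69 members had a median of -0.18 (58 negative), the middle 69 a median of -0.24 (63 negative) and the brightest 69 a median of -0.20 (65 negative). The 204 chromosome 8 genes detected on all 9 arrays but below the level threshold, which the rule left out, had a median of -0.22 with 166 (81.4%) negative, beside -0.02 and 53.7% in 3506 such genes on the other autosomes. Their medians per array were 0.10, -0.03 and -0.06 on the wt arrays, -0.16, -0.29 and -0.22 on the het arrays and -0.18, -0.26 and -0.22 on the hom arrays. Every mutant array was below every wt array in these genes. A further 109 detected probes of members, none the brightest of its gene, had a median of -0.17 with 85 (78.0%) negative, beside 0.03 and 45.1% for 1706 second probes of other autosomal genes. These dimmer genes and further probes were read on the same 9 arrays and lie on the same chromosome. The further probes also belong to genes that are already members. Neither set is therefore an independent test.

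Among single members, Nup133, a scaffold subunit of the nuclear pore, had the most negative difference without overlap. Its log2 intensity was 9.95, 9.65 and 9.65 on the wt arrays, 9.40, 9.19 and 9.28 on the het arrays, and 9.34, 8.98 and 8.79 on the hom arrays. The highest mutant array was below the lowest wt array by a clear margin, and the mutant mean was 66.6% of the wt level. The difference was -0.59 (SE 0.13, adjusted p = 0.432, and 0.0108 with the block). Ankrd11, a nuclear repeat protein that binds histone deacetylases, read 8.82, 8.67 and 8.73 in wt, 8.37, 8.13 and 8.42 in het and 7.997, 7.77 and 8.46 in hom. The difference was -0.55 (SE 0.15, adjusted p = 0.435, and 0.029 with the block), and hom 3 was the mutant array nearest to wt. Mcph1, which acts in chromosome condensation and the DNA damage response, had 8.397, 7.96 and 8.03 in wt, 7.88, 7.43 and 7.84 in het and 7.80, 7.35 and 7.30 in hom. Its groups were separated by less than the spread within wt, with a difference of -0.53 (SE 0.17, adjusted p = 0.447, and 0.0273 with the block).

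Gab1, a docking adaptor that links growth factor receptors to the MAPK and PI3K pathways, had the lowest p of all members. Its wt arrays read 11.25, 11.09 and 11.04, its het arrays 10.72, 10.53 and 10.67, and its hom arrays 10.76, 10.51 and 10.40. All 6 mutant arrays lay clear of wt, and the difference was -0.53 (SE 0.10, adjusted p = 0.432, and 0.0082 with the block), 69.4% of wt. In MEF its differences had the other sign, 0.39 for hom minus wt and 0.23 for het minus wt (adjusted p = 0.999 and 1.0), and the ESC minus MEF difference of the 2 effects was -0.81 (adjusted p = 0.740). Atmin, a zinc finger protein that interacts with the ATM kinase, read 9.49, 9.66 and 9.58 in wt, 9.39, 9.11 and 9.03 in het and 9.06, 9.04 and 9.05 in hom. Its 3 hom arrays were nearly equal (SD 0.01, n = 3), and the difference was -0.46 (SE 0.10, adjusted p 0.0292 with the block).

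Of the 12 members with the most negative differences and no overlap, the other 7 had differences from -0.45 to -0.40. Triml1, of the tripartite motif family, had -0.45, Pnpla6, a lysophospholipase known as neuropathy target esterase, -0.42, and Rfwd3, a ubiquitin ligase of the DNA damage response, -0.41. Their adjusted p with the block was 0.0483, 0.0412 and 0.0475. Fto, an RNA demethylase, had -0.40 (0.0475 with the block), with 9.90, 9.77 and 9.63 in wt, 9.41, 9.43 and 9.63 in het and 9.39, 9.05 and 9.28 in hom. Het 3 and wt 3 of Fto were equal to 2 decimals, so its groups only just did not overlap. Nfatc3, a transcription factor activated by calcineurin, had -0.43 and did not pass with the block (adjusted p = 0.0524). The remaining pair, Aars and Spg7, are described with their groups below. All of these had an adjusted p of at least 0.432 with no block.

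**Figure D3:**
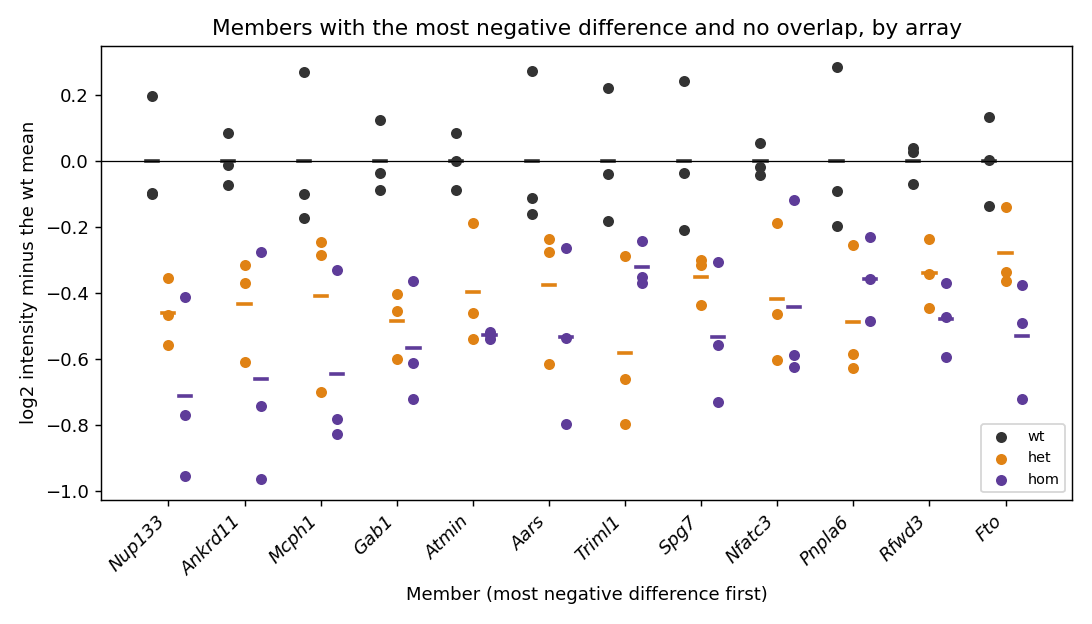
Points are the log2 intensity of each ESC array minus the wt mean for the 12 members with the most negative mutants minus wt difference and no overlap; short bars are group means (n = 3 arrays each). For each gene all orange (het) and purple (hom) points lie below all black (wt) points, with group differences from -0.59 for Nup133 to -0.40 for Fto.

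Sorted by role, 87 members fell into 8 lists and 120 into none; 105 of those 120 were negative, with a median of -0.20, close to that over all members. These lists were written with earlier results of these arrays known, and p-values in parentheses are adjusted p-values from the fit with the block. Over all 207 members 30 were called lower with the block and 36 were all below wt, beside 1.56% and 2.98% of all probes. Members in no list made up 14 of those 30 and 18 of those 36. The list counts below stand beside these values and are not read as traits of a role. In the list of replication, repair and cell cycle all 11 members were negative (median -0.27), with 4 called lower with the block and 3 all below wt. Tfdp1, the partner that lets E2F factors bind DNA, read 10.35, 10.50 and 10.23 in wt, 10.07, 10.05 and 9.89 in het and 10.07, 10.07 and 9.91 in hom. The het and hom arrays of Tfdp1 covered the same range below wt, with a difference of -0.35 (SE 0.09, 0.0331 with the block). Rnaseh2a, the catalytic subunit of the enzyme that removes ribonucleotides from DNA, had -0.36 (0.0457), and Cenpt, of the inner kinetochore, -0.33 (0.0448). E2f4, an E2F factor of the repressor type, had -0.51 but overlapped, since wt 3 (7.96) lay below hom 3 (8.24), and its adjusted p with the block was 0.0855. The other member of the list called lower with the block was Cdt1, a replication licensing factor (-0.30, 0.0426). Mcm5, a subunit of the replicative helicase, was in none of the lists; it and Cdt1 were chosen here after their values were seen. Mcm5 had 12.40, 12.38 and 12.22 in wt, 12.21, 11.98 and 11.95 in het and 12.12, 11.88 and 11.92 in hom (-0.32, 0.0273 with the block).

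In the list of chromatin and transcription all 15 members were negative (median -0.22), with 2 called lower with the block, Ankrd11 and Ash2l. Ash2l, a core subunit of the MLL family methyltransferase complexes, had 10.49, 10.10 and 10.01 in wt, 10.03, 9.80 and 9.78 in het and 10.12, 9.65 and 9.80 in hom. Its replicate 1 was the highest array of all 3 genotypes, so the groups overlapped, and the difference was -0.34 (adjusted p = 0.477, and 0.0452 with the block). Prmt7, an arginine methyltransferase, had -0.46 (0.0515 with the block), and Taf5l, a subunit of the SAGA family coactivator complex, had -0.31 without overlap (0.124 with the block).

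All 9 members of the list of RNA processing and decay were negative (median -0.24), and 3 were called lower with the block. Lsm4, of the ring that binds a spliceosomal RNA, read 12.35, 12.27 and 12.15 in wt, 11.85, 11.84 and 11.99 in het and 11.98, 11.89 and 12.07 in hom. No array overlapped between wt and mutants in this bright gene, with a difference of -0.32 (SE 0.07, 0.0395 with the block). Dhx38, a spliceosomal helicase, had -0.36 without overlap (0.0401), and Upf1, the helicase of nonsense-mediated decay, -0.46 with overlap (0.0475). Sf3b3, of the branch site recognition complex, had -0.54 and overlapped, with wt 1 at 10.46 against 9.67 and 9.79 on the other wt arrays, and did not pass (0.0555).

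In protein synthesis 8 of 9 members were negative (median -0.25), 2 were called lower with the block and 3 were all below wt. Aars, the alanyl-tRNA synthetase, had 12.38, 11.99 and 11.95 in wt, 11.87, 11.49 and 11.83 in het and 11.84, 11.31 and 11.57 in hom. Replicate 1 of Aars was the highest within each genotype, and the difference was -0.45 (SE 0.14, and 0.0157 with the block). Utp4 and Nob1, which act in maturation of the small ribosomal subunit, had -0.35 (0.0452) and -0.29 (0.0998) without overlap, and Tcf25, the counterpart of a yeast ribosome quality control factor, had -0.32 with overlap (0.0752). In protein folding, turnover and ubiquitin 8 of 10 were negative (median -0.17) and Get3 alone was called lower with the block. Get3, the ATPase that delivers tail-anchored proteins to the endoplasmic reticulum, had -0.30 (0.0481). Spcs3, of the signal peptidase complex (-0.28), Bag4, a co-chaperone (-0.20), and Fkbp8, of the immunophilin family (-0.28), had 0.103, 0.167 and 0.072.

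In mitochondrion and metabolism 11 of 12 were negative (median -0.22), with 3 called lower with the block. Spg7, a subunit of an inner membrane protease, had 8.50, 8.05 and 8.22 in wt, 7.94, 7.82 and 7.96 in het and 7.95, 7.53 and 7.70 in hom, a difference of -0.44 (0.0378 with the block). Ndufa13, a complex I subunit, had -0.26 (0.0451). Cox4i1, a cytochrome c oxidase subunit and one of the brightest members, had 13.09, 13.03 and 13.02 in wt, 12.81, 12.89 and 12.62 in het and 12.83, 13.00 and 12.81 in hom. Its difference of -0.22 came without overlap, with hom 2 just under wt 3, and it did not pass (0.0738). Dhodh, the inner membrane enzyme of pyrimidine synthesis, had -0.36 with overlap (0.0614).

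The 15 members of membrane traffic and lysosome had a median of -0.17 with 14 negative. Limma called 0 of them with the block, and 4 were lower at an unadjusted p under 0.05 with no block. At that unadjusted p 70 of all 207 members and 5.41% of all probes were lower. Glg1, a Golgi glycoprotein, had -0.38 (0.0534 with the block), Clcn3, an endosomal chloride and proton exchanger, -0.34 (0.107), Lamp1, of the lysosomal membrane, -0.32 (0.0674), and Cope, of the COPI coat, -0.20 (0.137). The 6 members of signalling, adhesion and growth factor receptors had the median nearest to 0, -0.07, with 5 negative and Gab1 alone called lower with the block. Prkaca, a catalytic subunit of protein kinase A whose promoter is printed above, read 9.01, 8.78 and 8.79 in wt, 8.77, 8.86 and 8.77 in het and 8.73, 8.65 and 8.81 in hom. Its groups overlapped almost fully (-0.10, adjusted p = 0.569 with the block). Dusp4, a phosphatase of MAP kinases, had -0.19 with a wt SD of 0.54 (n = 3).

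The 21 members with a positive difference all overlapped between wt and mutants. The largest, Col4a1, a collagen of the basement membrane, read 7.55, 8.54 and 7.28 in wt, 7.16, 9.57 and 7.61 in het and 7.41, 9.25 and 7.53 in hom. Replicate 2 was the highest array in each genotype, and the difference of 0.30 (SE 0.56, adjusted p = 0.878) turned to -0.066 without het 2. The next was Tpm4, a tropomyosin, at 0.27 (SE 0.37), followed by Golga7, which takes part in protein palmitoylation, at 0.22 (SE 0.18); both, like the next gene, were chosen after their values were seen. Klf2, a transcription factor of the naive pluripotent state, had 9.63, 10.38 and 9.57 in wt, 9.72, 9.67 and 8.83 in het and 9.40, 9.46 and 9.04 in hom, with overlap and a difference of -0.51 (adjusted p = 0.0552 with the block).

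In MEF of the same genotypes the member median lay close to 0. Among 205 members tested, the median was -0.0014 for hom minus wt with 106 negative and 0.01 for het minus wt with 94 negative. Limma called 0 members in either, beside 0.00661% and 0.0% of all probes lower; 2 members were lower and 2 higher for hom and 2 lower and 1 higher for het at an unadjusted p under 0.05, where 1.49% and 0.747% of all 15125 probes were lower and 1.06% and 0.734% higher. On each of the 11 MEF arrays chromosome 8 lay within the range of the other autosomes: from -0.04 to 0.05 on the wt arrays, -0.03 to 0.02 on the het arrays and -0.02 to 0.02 on the hom arrays. The difference between cell types was tested directly, as mutants minus wt in ESC less the same in MEF. Its member median was -0.18 with 169 of 207 negative; limma called 0 members and 0.0% of all probes, and at an unadjusted p under 0.05 17 members were lower and 0 higher, where 2.63% of all probes were lower and 2.21% higher.

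**Figure D4:**
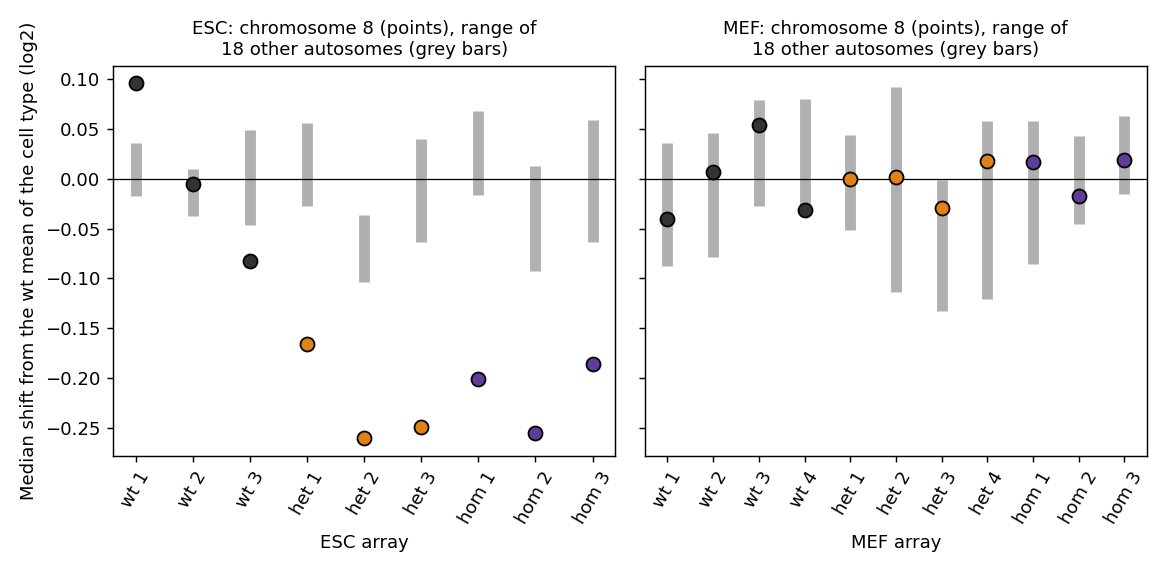
Points are the chromosome 8 median of log2 intensity minus the wt mean of the same cell type, for 9 ESC arrays (left) and 11 MEF arrays (right), coloured by genotype (black wt, orange het, purple hom); grey bars span the other 18 autosomes. All 6 mutant ESC points lie below the bars, between -0.26 and -0.17, while the MEF points lie within them, between -0.04 and 0.05.

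ESC and MEF levels were also set side by side, after all 20 arrays had been normalized together. Members and control genes alike were chosen for detection and level on the ESC arrays alone, a choice that favours positive ESC minus MEF values on every autosome, so only the place of chromosome 8 among the autosomes is described. Over 205 members, wt ESC minus wt MEF had a median of 0.51, and 1 of the 18 other autosomes was above it (range 0.19 to 0.53). Het ESC minus het MEF was 0.33 with 10 other autosomes above, and hom ESC minus hom MEF was 0.38 with 5 above. Array by array, against the mean of the 11 MEF arrays, wt 1 stood at 0.66, wt 2 at 0.46 and wt 3 at 0.45, with 0, 2 and 4 other autosomes above. The het arrays stood at 0.37, 0.25 and 0.30 with 9, 13 and 14 above, and the hom arrays at 0.39, 0.33 and 0.38 with 6, 5 and 8 above. Chromosome 8 was thus above all other autosomes on wt 1 alone; wt 3, with 4 above, ranked close to hom 2, with 5, and hom 1, with 6. DNA copy number was not measured in these files, and a higher chromosome 8 level in the wt cultures and a lower one in the mutant cultures cannot be told apart from their ratio.

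**Figure D5:**
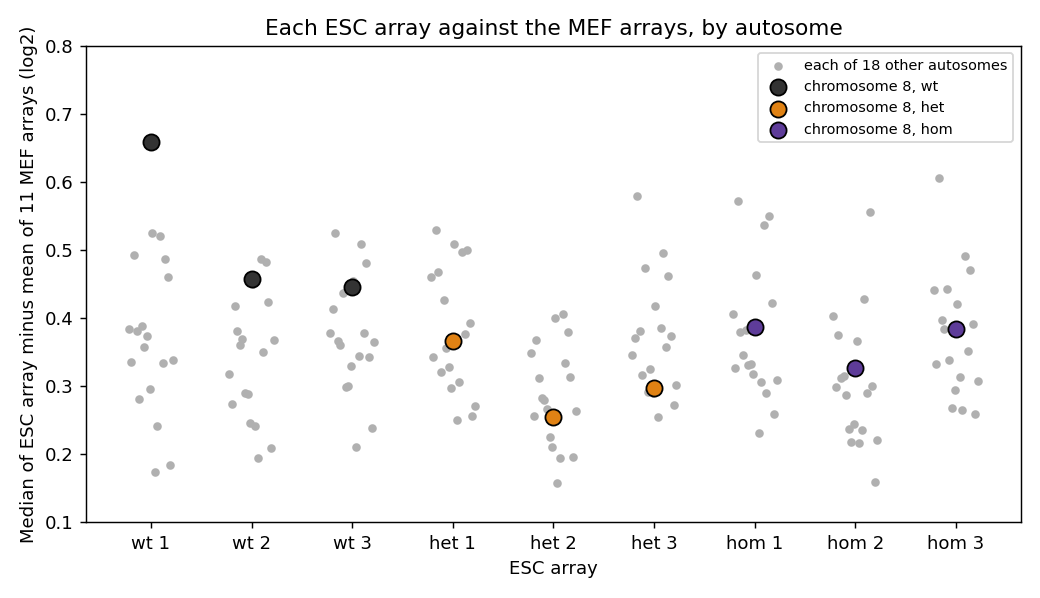
Each point is the median over 1 autosome's genes of the log2 intensity of 1 ESC array minus the mean of the 11 MEF arrays; large points are chromosome 8 coloured by genotype and grey points the other 18 autosomes. Chromosome 8 is at 0.66 on wt 1, above all grey points, at 0.46 and 0.45 on wt 2 and wt 3, and between 0.25 and 0.39 on the mutant arrays, amid the grey points.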

How the data were processed

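RNA from 9 ESC and 11 MEF samples was hybridised to Illumina bead arrays of 45281 probes. Per the file headers and the submitters' processing notes, the authors deposited BeadStudio signal intensity values with a detection p-value per probe, and a table of processed intensity values per array; limma is named in those notes, and how the processed table was normalized is not given in the sources used here. The probe table names 1 gene for 34885 probes, several for 18 and none for 10378; chromosomes and gene order came from RefSeq (GRCm38.p6), and no per-sample column was left unmapped. The deposited processed intensity served only to choose members and as an alternative.

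The raw signals were normalized within each cell type with neqc of limma 3.58.1 in R 4.3.3 (normexp background, offset 16, quantile), log2 transformed, filtered to probes with a detection p-value under 0.01 on at least 3 arrays, and fitted over the 3 genotypes with lmFit and eBayes with a trend. P-values were adjusted by Benjamini-Hochberg over all probes tested. The fitting script was tested on simulated data with known changes. Deviations from group means correlated at 0.367 to 0.773 in all 9 same-numbered ESC pairs and at -0.622 to 0.204 in other pairs, so the numbers paired the ESC arrays; in MEF the range was -0.818 to 0.802.

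The members and lists were chosen with earlier results of these data known. Named genes are the 12 members with the most negative differences and no overlap, up to 6 with the most positive and no overlap (there were none), up to 4 of each list by p, and those at the level threshold. Alternatives covered background, scaling, filter, slide, array weights, the replicate block and left-out arrays.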

Additional observations from a re-analysis of the deposited data

How the results depend on the processing

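The negative median of the members was kept under every alternative run for mutants minus wt (-0.25 to -0.14), hom minus wt (-0.24 to -0.10) and het minus wt (-0.26 to -0.16), leaving out each array included (-0.23 to -0.16 for mutants minus wt with no block, and down to -0.25 with it). It moved by more than the spread between replicates with slide as a fixed block, to -0.14 for mutants minus wt and -0.10 for hom minus wt. Median scaling put het 3 at -0.32 and the control genes of het 3 at -0.10, from -0.01 under quantile normalization; relative to the control genes het 3 was at -0.23, beside -0.24 under quantile normalization. In MEF, hom minus wt was 0.0299 with the authors' processed values. With the replicate number as a block the counts of members called were 29 for hom minus wt, 1 for het minus wt and 30 for mutants minus wt, against 0 without it, and no call of hom minus het changed. Leaving out 1 array with the block gave 0 to 40, 0 to 2 and 0 to 29. In the order wt 1 to 3, het 1 to 3 and hom 1 to 3 it gave 9, 0, 4, 40, 9, 32, 23, 0 and 1 for hom minus wt and 7, 0, 1, 20, 2, 29, 25, 2 and 22 for mutants minus wt. In these and the next counts a few members were higher rather than lower. Without the libraries labelled het 1 and hom 1 it gave 30, 5 and 19, and 4 for hom minus het. With 1 array left out, calls over all probes ran from 2 to 534 lower and 0 to 487 higher for hom minus wt. They ran from 2 to 45 and 1 to 95 for het minus wt. For mutants minus wt they ran from 4 to 267 and 2 to 284. Without those 2 libraries they were 528 and 573 for hom minus wt and 74 and 188 for het minus wt. They were 239 and 361 for mutants minus wt and 128 and 165 for hom minus het. The count of members all below wt was 56 without those 2 libraries, chosen after seeing the data, and 38 to 66 without 1 array, while over all probes the share rose from 2.98% to 6.94% and to between 3.28% and 7.44%. Col4a1 reversed to -0.89 with the slide block, and ran from -0.066 (without het 2) to 0.67 (without wt 2) when 1 array was left out; Dusp4 ran from -0.50 (without wt 1) to 0.0053 (without wt 2). Of the other named gene values 856 stayed on their side of the threshold and 21 passed only with the block; the cause of these moves was not tested. No arm has more than 3 ESC arrays, which limits the precision of each gene.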
